A study of Mus musculus with 12 samples.

Results

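The 40 genes described here encode nuclear subunits of respiratory complexes II to V: 4 of complex II (succinate dehydrogenase), 7 of complex III (the cytochrome bc1 complex), cytochrome c, 12 of complex IV (cytochrome c oxidase), 15 of the ATP synthase (complex V) and the ATP synthase inhibitor Atpif1. They were chosen by name, from their place in these complexes, with earlier results of these data known. Of the 40, 39 were among the 18193 genes measured. Cox7b had no probe set naming it alone and was not analysed here. Their RNA was measured in brown adipose tissue of ob/ob mice, which lack leptin and are obese. All 12 animals were males aged 3 months kept on normal chow. In the treated group, 6 mice received 1 intraperitoneal dose of 1 mg/kg of an agonistic antibody against the receptor FGFR1. In the control group, 6 pair-fed mice, whose food was matched to that of the treated mice, received a control IgG, and in both groups tissue was taken on day 4. Every mouse carried the ob/ob genotype, and no lean or untreated mice were among them. Each mouse gave 1 Affymetrix array, with values on a log2 scale, used as deposited. The question put to these genes is whether activating FGFR1 alters their RNA in brown fat.

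Complex II oxidizes succinate and passes electrons to ubiquinone. Complex III moves them from ubiquinol to cytochrome c, complex IV moves them to oxygen, and the ATP synthase uses the proton gradient built by complexes I, III and IV to make ATP. Brown adipocytes are packed with mitochondria, and the uncoupling protein Ucp1 lets protons return without ATP synthesis, so that respiration yields heat. The tissue is known for a large respiratory chain with little ATP synthase, and its content of the c subunit, the membrane ring of the enzyme, has been named as limiting. Atp5g1, Atp5g2 and Atp5g3 encode the same mature c subunit behind different import sequences, and Atpif1 encodes the inhibitor that binds the enzyme when it would run in reverse.

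The promoters of the c subunit genes are shown because these genes make the same protein from separate promoters. Also shown are those of Atp5k (subunit e) and Uqcrfs1 (the Rieske iron-sulfur protein), members whose treated arrays all lay above all controls. The same was true of Atp5f1, whose promoter is not shown and held 0 matches to the motifs described below. The RefSeq promoter table of build GRCm38.p6 held an entry for 30 of the 40 members, Cox7b among them, and none for Sdhc, Uqcrc2, Uqcrb, Uqcrq, Cyc1, Cox4i1, Cox4i2, Cox6a2, Cox6c and Atp5a1. Each line gives the 250 bases before the annotated start, 5′ to 3′ on the gene's strand, with motif matches in capitals.
Atp5g1 promoter, chr11:96075632-96075881, minus strand: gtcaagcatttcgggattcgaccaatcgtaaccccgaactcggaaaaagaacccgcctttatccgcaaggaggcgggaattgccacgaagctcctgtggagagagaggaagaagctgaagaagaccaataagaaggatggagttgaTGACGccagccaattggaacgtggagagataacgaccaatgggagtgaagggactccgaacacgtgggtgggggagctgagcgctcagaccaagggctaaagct
Atp5g2 promoter, chr15:102671048-102671297, minus strand: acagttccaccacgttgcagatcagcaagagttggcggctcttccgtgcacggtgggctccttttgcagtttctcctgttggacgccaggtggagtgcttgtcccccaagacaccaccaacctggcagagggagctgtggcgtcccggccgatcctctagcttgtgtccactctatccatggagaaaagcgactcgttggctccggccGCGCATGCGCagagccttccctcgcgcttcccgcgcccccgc
Atp5g3 promoter, chr2:73911327-73911576, minus strand: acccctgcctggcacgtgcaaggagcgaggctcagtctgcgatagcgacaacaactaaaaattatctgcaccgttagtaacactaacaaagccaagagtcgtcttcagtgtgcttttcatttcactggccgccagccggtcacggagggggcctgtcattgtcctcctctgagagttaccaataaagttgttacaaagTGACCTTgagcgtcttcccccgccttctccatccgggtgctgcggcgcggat
Atp5k promoter, chr5:108434400-108434649, minus strand: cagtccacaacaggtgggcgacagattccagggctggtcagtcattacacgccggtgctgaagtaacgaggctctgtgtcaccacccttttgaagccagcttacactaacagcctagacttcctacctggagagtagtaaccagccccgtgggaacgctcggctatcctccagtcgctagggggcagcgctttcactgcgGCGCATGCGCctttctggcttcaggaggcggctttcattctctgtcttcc
Uqcrfs1 promoter, chr13:30545317-30545566, minus strand: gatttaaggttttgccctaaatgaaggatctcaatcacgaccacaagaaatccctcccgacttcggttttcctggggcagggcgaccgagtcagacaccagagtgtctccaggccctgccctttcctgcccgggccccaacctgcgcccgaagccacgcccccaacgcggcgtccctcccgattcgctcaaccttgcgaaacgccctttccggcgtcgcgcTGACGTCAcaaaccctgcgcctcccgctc

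Motifs of 4 factor families known at genes of mitochondrial proteins were searched on both strands, and a match is a description of letters only. TGACG or CGTCA, one side of the cAMP response element, stood in 9 of the 30 promoters (30.0%), against 19.8% of all 27025 promoters and 25.9% of the 14452 promoters of genes tested here. In Uqcrfs1 both orientations overlap and form the capitals TGACGTCA, while Atp5g1 holds TGACG in a single orientation. Part of the NRF1 site, CATGCGC or GCGCATG, stood in those of 7 members (23.3%, against 3.68% of all such genes and 5.31% of those tested). In Atp5g2 and Atp5k both orientations overlap and form the capitals GCGCATGCGC. An ETS site, CCGGAAG or CTTCCGG, stood in 8 (26.7%, against 7.83% and 11.8%). The site of estrogen-related receptors, AAGGTCA or TGACCTT, stood in 3 (10%, against 4.70% and 4.17%), which are Atp5g3, Atp5l and Atpif1. The c subunit promoters thus held 3 different motifs, with no motif shared between any pair of them.

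The arrays were alike, with medians between 7.19 and 7.23 and a mean correlation with the other arrays of their group between 0.992 and 0.996. The 9 brown adipocyte markers, Ucp1 among them, had a mean level of 11.2 to 11.7 in controls and 11.6 to 11.8 after anti-FGFR1, with 2 higher and 1 lower in the test, so the labelled tissue carried its markers. Markers of other cell types moved with treatment: 4 of 14 macrophage markers were higher, all 14 lying above 0, and the list's mean ran from 9.87 to 10.5 in controls and from 10.2 to 10.5 after treatment. Among endothelial markers 8 of 12 were lower (9.60 to 9.84 against 9.30 to 9.55), as were 7 of 10 of smooth muscle and pericytes (9.78 to 9.97 against 9.49 to 9.68). Of 8 fibroblast and preadipocyte markers 3 were higher and 1 lower (10.1 to 10.6 against 10.2 to 10.6), and of 8 general adipocyte markers 1 was higher and 2 lower (12.87 to 12.95 against 12.73 to 13.002). Skeletal muscle markers had all 15 fold changes below 0 with none called, and their mean spread from 9.65 to 11.9 in controls and from 7.10 to 11.7 after treatment. The 3' to 5' ratio of the Actb and Gapdh control probe sets, a sign of RNA integrity, was also higher after anti-FGFR1 (0.16 ± 0.03 against 0.20 ± 0.03 on the log2 scale, SD, n = 6 per group, two-sided exact permutation p = 0.0368). The part of these shifts in the results below was not tested except where a value with them as a covariate is given. In bulk tissue, fewer cells of a type and less RNA per cell cannot be told apart.

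RNAs of complexes II to V differed little between the groups. Of the 39 genes measured, 1 rose and 0 fell at a Benjamini-Hochberg adjusted p under 0.05 (limma), which is 2.56%, against 8.03% of all genes tested (2.94% higher and 5.09% lower). At an unadjusted p under 0.05 there were 3, against 22.4% of all genes. Each fold change is anti-FGFR1 minus control on the log2 scale, with the moderated standard error (SE) of limma. Moderation draws a gene's variance toward a value shared by all genes. Fold changes were above 0 for 27 members and below 0 for 12, with a median of 0.032. Over all genes the median was 0.0091 and 53.4% lay above 0. All 6 anti-FGFR1 arrays lay above all controls for 3 members, Uqcrfs1, Atp5k and Atp5f1 (1.57% of all genes), and below all controls for 1, Atp5g3 (3.55% of all genes).

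**Figure D1:**
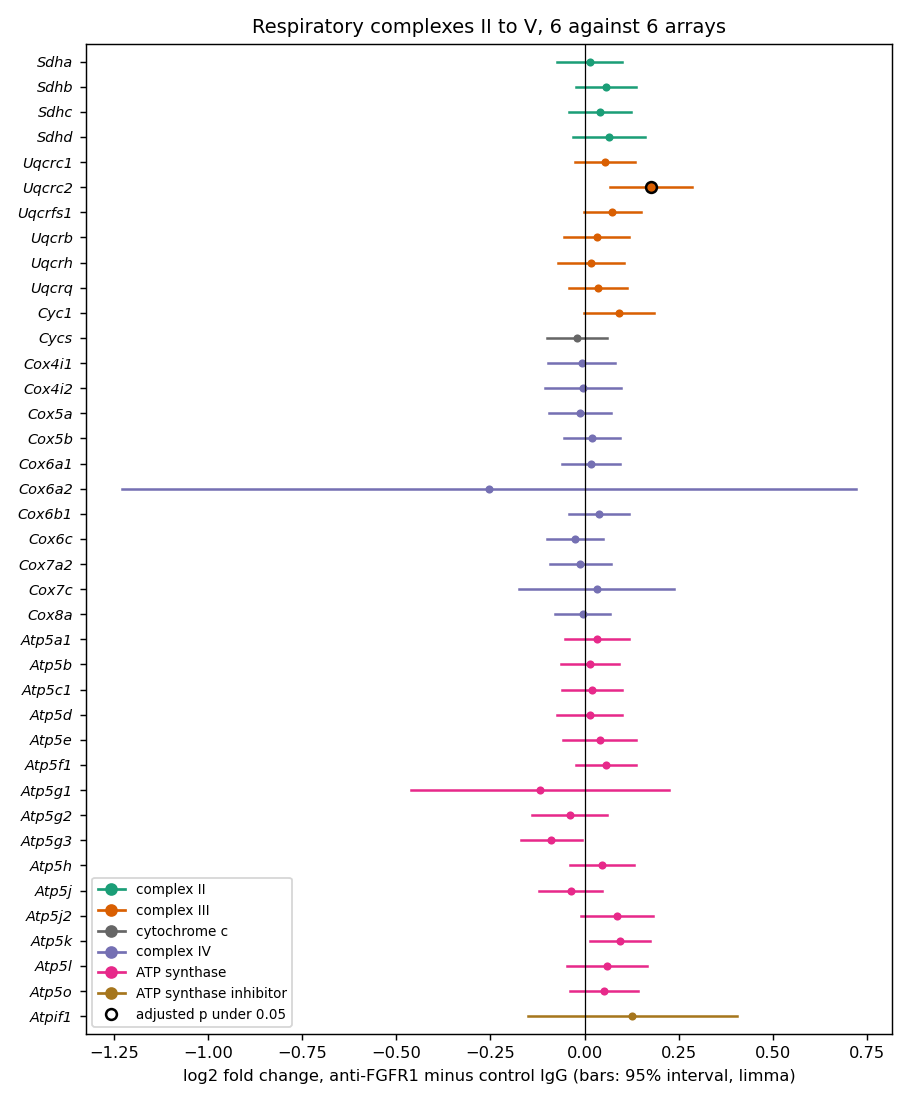
Log2 fold change (anti-FGFR1 minus control IgG, x axis) of each of the 39 measured members, grouped by complex, with bars for the 95% confidence interval of the limma fit and 6 arrays per group. Uqcrc2 (0.18) is the single called gene, most points lie within 0.1 of 0, and Cox6a2, Atp5g1, Atpif1 and Cox7c have the wide intervals.

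The spread within groups was small for most members. Of the 39 genes, 34 had a mean of at least 12 (12.6 to 14.5), and 23 were among the 100 genes with the brightest probe sets. Their median within-group SD was 0.041, against 0.11 over all genes, and their SEs ran from 0.034 to 0.051. Being moderated, these SEs rest partly on the variance of all genes, not only on the SDs of the members. The same holds for the intervals and calls drawn from them. For the 33 of them that were not called, no 95% interval reached below -0.17 or above 0.19, bounds of about 1.12-fold lower and 1.14-fold higher. The bounds hold for the probe set used for each gene. A dimmer probe set of Cox6c, which is among the 33, fell beyond them, as given below. Over all 595 genes with a mean of at least 12, a bound chosen after seeing the data, 78 were called (13.1%). The deposited values reach up to 14.9 and carry no mark of saturated probes, so these SDs and bounds hold for the deposited scale only, and whether bright values are compressed was not tested. The other 5 members, Cox4i2, Cox7c, Atpif1, Cox6a2 and Atp5g1, had means between 7.51 and 9.56, and of these Cox6a2, Atp5g1, Atpif1 and Cox7c had the largest within-group SDs of all members (0.95, 0.33, 0.26 and 0.19).

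Complex II was measured through all 4 subunits, and none was called. Sdha, the flavoprotein that binds succinate, was 13.86 ± 0.05 in control mice and 13.87 ± 0.04 in treated mice (SD, n = 6 arrays here and below), a difference of 0.014 ± 0.040 (SE). Sdhb, the iron-sulfur subunit, differed by 0.056 ± 0.037. The membrane anchors Sdhc and Sdhd, which hold the ubiquinone site, differed by 0.041 ± 0.039 and 0.066 ± 0.045. All 4 values lay above 0, with a median of 0.048, and the mean of the complex per array overlapped between groups (13.47 to 13.56 in controls, 13.52 to 13.62 after anti-FGFR1).

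Complex III held the one called member, Uqcrc2, a core protein of the matrix arm. Uqcrc2 had a lowest value of 13.02, a median of 13.22 and a highest value of 13.32 in controls, and 13.31, 13.38 and 13.41 after anti-FGFR1. In 5 of 6 treated mice it was above every control, and the treated values were also the tighter group. Its means were 13.19 ± 0.11 and 13.36 ± 0.04, a rise of 0.18 ± 0.05 (95% interval 0.07 to 0.29, 1.13-fold, limma adjusted p = 0.0487). The call depended on the arrays used: it held without control IgG replicate 2 (adjusted p = 0.0283) and was lost without any other single array (adjusted p 0.0551 to 0.0980, fold change 0.14 to 0.19). With the 3' to 5' ratio in the fit the value was 0.16 ± 0.07 (adjusted p = 0.249), and a second, dimmer probe set of Uqcrc2 differed by 0.09.

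The other complex III members were not called, although all of them lay on the same side. Uqcrfs1, which carries the Rieske iron-sulfur cluster, ran from 13.70 (median 13.73) to 13.78 in controls and from 13.79 (median 13.81) to 13.83 after anti-FGFR1. The groups did not overlap and the difference was 0.074 ± 0.035 (adjusted p = 0.230). Cyc1, cytochrome c1, which hands electrons to cytochrome c, ran from 13.88 (median 13.97) to 14.10 and from 14.02 (median 14.07) to 14.12, a difference of 0.091 ± 0.044 (adjusted p = 0.236) with 1 treated mouse above all controls. The second core protein Uqcrc1 differed by 0.054 ± 0.038. The small subunits Uqcrb, Uqcrq and Uqcrh, which lie around the redox centres, differed by 0.032 ± 0.040, 0.035 ± 0.036 and 0.017 ± 0.041. The median of the 7 fold changes was 0.054, and the mean of the 7 genes per array ran from 13.74 to 13.82 in controls and from 13.82 to 13.87 after anti-FGFR1, without overlap. Without Uqcrc2, 5 of 6 treated mice stayed above all controls, and 5 of 6 did for all 7 genes when each array was centred on its median. With both changes together 3 of 6 did. When the 3' to 5' ratio was added to the fit, 6 of the 7 values were above 0 (median 0.066). The same fit put 4 of 4 complex II values above 0 (median 0.038). For complex IV it was 6 of 11 (median 0.0019), and for the ATP synthase 12 of 15 (median 0.028).

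**Figure D2:**
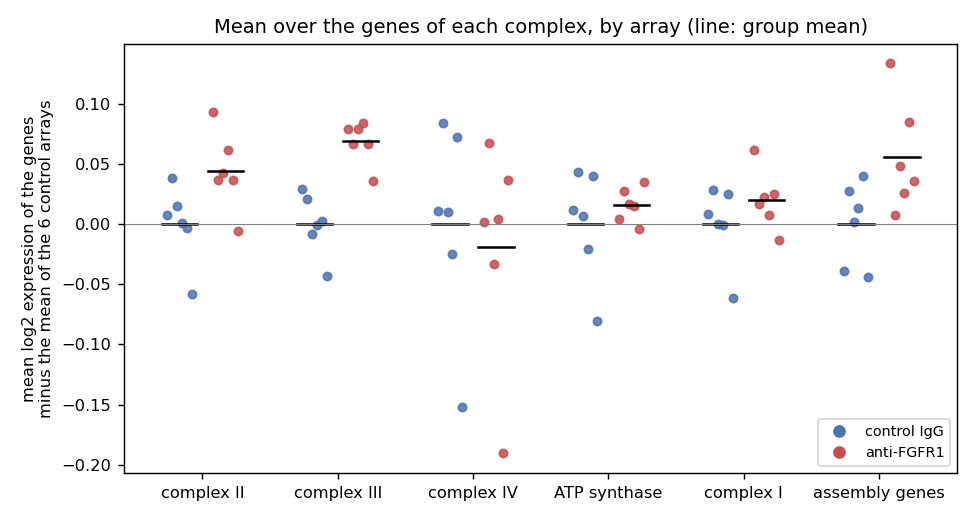
Mean log2 expression of the measured genes of each complex and of the assembly genes, minus the mean of the 6 control arrays (y axis), 1 point per array in each group and a line at each group mean. For complex III the treated arrays (13.82 to 13.87 before subtraction) lie above the controls (13.74 to 13.82), and in the other sets the groups overlap.

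Cycs, the somatic cytochrome c that carries electrons from complex III to complex IV, differed by -0.020 ± 0.037. Its values were 14.05 ± 0.04 in controls and 14.03 ± 0.03 after anti-FGFR1.

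Complex IV had 4 of 11 fold changes above 0, a median of -0.0045 and 0 called. The ubiquitous form of the regulatory subunit IV, Cox4i1, differed by -0.0077 ± 0.042, and the isoform Cox4i2, known for lung and low oxygen, by -0.0036 ± 0.047. Cox5a and Cox5b, the matrix-facing subunits, differed by -0.012 ± 0.038 and 0.020 ± 0.035. The ubiquitous Cox6a1 differed by 0.018 ± 0.036, Cox6b1, which faces the intermembrane space, by 0.039 ± 0.037, and Cox7a2 by -0.011 ± 0.038. Cox8a, the smallest subunit, had the tightest values of all members (within-group SD 0.017) and differed by -0.0045 ± 0.034. Cox7c differed by 0.032 ± 0.096 on a dim probe set (mean 8.13). The mean of the complex ran from 12.49 to 12.73 in controls and from 12.45 to 12.71 after anti-FGFR1. Its lowest array in each group, control IgG replicate 6 and anti-FGFR1 replicate 5, was also the lowest for Cox6a2 (7.86 and 7.37). Cox6a2 followed the muscle markers, as given below, and the mean without it was not computed.

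Probe sets of Cox6c, a membrane subunit, did not give the same answer. The brighter one, used in the counts above, was 14.24 ± 0.02 in controls and 14.22 ± 0.02 after anti-FGFR1 (-0.025 ± 0.035). The dimmer one ran from 12.17 (median 12.28) to 12.38 in controls and from 11.72 (median 11.90) to 12.12 after anti-FGFR1. All 6 treated values of the dimmer probe set lay below all controls, and it fell by 0.38 ± 0.07 (limma adjusted p = 0.00294 over 34945 probe sets, of which 2411 were called). It was the single called one among the 84 probe sets of the members. In 12 of the 28 members with more than 1 probe set, some pair of probe sets differed in sign.

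Cox6a2, the heart and skeletal muscle isoform of subunit VIa, followed the muscle markers across animals. It ran from 7.86 (median 9.44) to 10.31 in controls and from 7.37 (median 9.31) to 10.10 after anti-FGFR1. The groups overlapped almost fully, with single low arrays in each group (control IgG replicate 6 and anti-FGFR1 replicate 5), and the difference was -0.25 ± 0.46 (adjusted p = 0.796). Over the 12 arrays Cox6a2 correlated with the mean of 15 skeletal muscle markers (Pearson r = 0.941, Spearman rho = 0.972, permutation p = 1e-05 for both, the smallest that 100000 resamples give, adjusted over 41 relations 0.00041). Without those 2 arrays, which were also the farthest from the median of the marker mean, r was 0.984, and within the groups it was 0.993 (controls) and 0.974 (anti-FGFR1). Atp5g1 showed the same relation more loosely (r = 0.718, permutation p = 0.0014, adjusted 0.0287, and rho = 0.853, permutation p = 0.00068, adjusted 0.0139). For Atp5g1 r was 0.890 without the same 2 arrays and 0.838 and 0.707 within the groups. Of the other subunits with muscle-type isoforms, Cox7a1 and Cox8b, r was 0.061 and -0.080 (permutation p = 0.866 and 0.833). Within controls it was 0.747 for Cox7a1 and 0.802 for Cox8b, and within anti-FGFR1 arrays 0.345 and -0.296. Over the 41 genes r within controls ran from -0.660 (Atpif1) to 0.993 (Cox6a2). Atp5o (0.967), Cox8a (0.907) and Cox5a (0.907) lay above Cox7a1, Cox8b and Atp5g1 there. Within anti-FGFR1 arrays these stood at -0.587 (Atp5o), -0.395 (Cox8a) and 0.122 (Cox5a). A high r within controls was thus not particular to muscle-type isoforms. The share of muscle RNA in each sample was not measured otherwise.

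**Figure D3:**
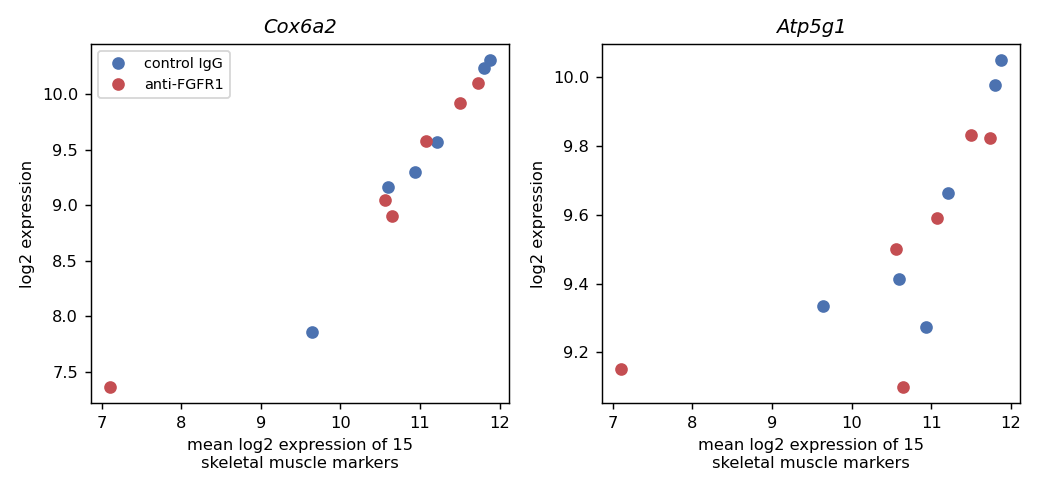
Log2 expression of Cox6a2 and Atp5g1 (y axes) against the mean log2 level of 15 skeletal muscle markers (x axis), 1 point per array, coloured by group. Cox6a2 (r = 0.941) and Atp5g1 (r = 0.718) rise along the marker mean, and anti-FGFR1 replicate 5 is the array farthest to the left.

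The ATP synthase had 11 of 15 fold changes above 0, a median of 0.034 and 0 called. In the catalytic head, Atp5a1 (alpha) differed by 0.034 ± 0.039, Atp5b (beta, which holds the catalytic sites) by 0.014 ± 0.036, Atp5c1 (gamma, the rotating shaft) by 0.020 ± 0.037, Atp5d (delta) by 0.014 ± 0.041 and Atp5e (epsilon) by 0.041 ± 0.045. In the stator that holds the head, Atp5o, which caps it, differed by 0.051 ± 0.042, Atp5h (subunit d) by 0.047 ± 0.040 and Atp5j (coupling factor 6) by -0.037 ± 0.039. Atp5f1 (subunit b of the stator) ran from 13.44 (median 13.50) to 13.52 in controls and from 13.52 (median 13.53) to 13.63 after anti-FGFR1. The Atp5f1 groups touched without overlapping, with anti-FGFR1 replicate 1 alone at the top, and the difference was 0.056 ± 0.037 (adjusted p = 0.405). A second, dimmer probe set of Atp5f1 differed by 0.0085, with the groups overlapping.

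Subunits e, f and g of the ATP synthase lie in the membrane, where dimers form. Atp5k (subunit e) ran from 13.54 (median 13.58) to 13.65 in controls and from 13.66 (median 13.68) to 13.73 after anti-FGFR1. All 6 treated mice lay above all controls, and the difference was 0.095 ± 0.037 (95% interval 0.016 to 0.17, adjusted p = 0.140). It was called in 1 alternative, when the variance prior followed intensity. Atp5j2 (subunit f) differed by 0.086 ± 0.045 (adjusted p = 0.277) and Atp5l (subunit g) by 0.059 ± 0.050.

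The fold changes of all 3 c subunit genes lay below 0 as reported, and none was called. The sign held in all 23 alternatives for Atp5g3 (-0.10 to -0.052), but Atp5g1 reached 0.057 with the 3' to 5' covariate and Atp5g2 reached 0.023 with the macrophage covariate. Atp5g3 ran from 13.52 (median 13.56) to 13.67 in controls and from 13.46 (median 13.49) to 13.51 after anti-FGFR1. Every treated mouse lay below every control, and the difference was -0.088 ± 0.038 (95% interval -0.17 to -0.0068, adjusted p = 0.184). Atp5g2 was 12.58 ± 0.09 in controls and 12.54 ± 0.04 after anti-FGFR1 (-0.039 ± 0.047). Atp5g1 ran from 9.27 (median 9.54) to 10.05 and from 9.10 (median 9.55) to 9.83, with 2 treated mice below all controls, nearly equal medians and a difference of -0.12 ± 0.16. Its wide spread went with the muscle markers described above. The inhibitor Atpif1 ran from 8.64 (median 8.89) to 9.31 and from 8.73 (median 9.09) to 9.33, also overlapping, with a difference of 0.13 ± 0.13 (95% interval -0.15 to 0.40).

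**Figure D4:**
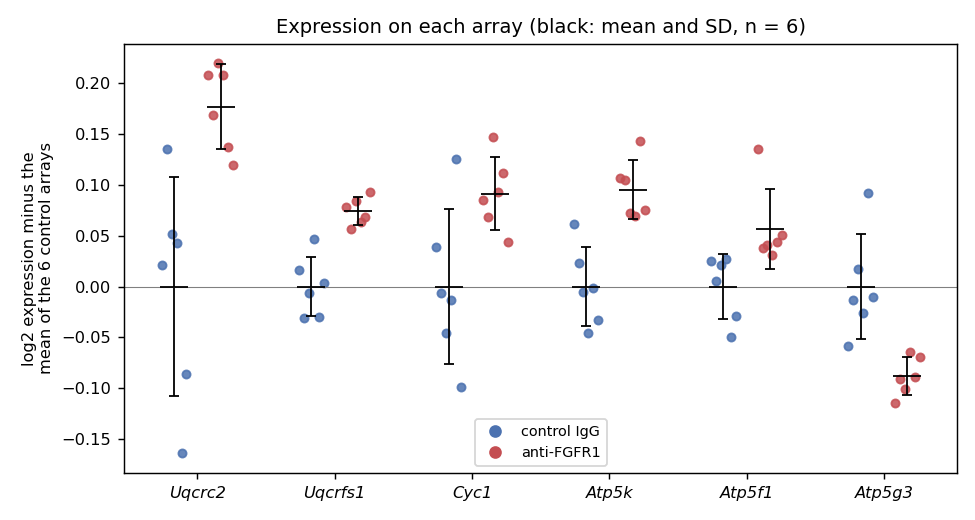
Log2 expression of Uqcrc2, Uqcrfs1, Cyc1, Atp5k, Atp5f1 and Atp5g3 minus the mean of the 6 control arrays (y axis), 1 point per array by group, with black bars for the mean and SD (n = 6). Before subtraction, Atp5g3 is lower in every treated array (13.46 to 13.51) than in any control (13.52 to 13.67), and Atp5k is higher (13.66 to 13.73 against 13.54 to 13.65).

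No shift in the balance between isoforms passed the test. In 6 pairs the log2 difference between the partners was taken on each array and compared by a two-sided exact permutation test, whose smallest p is 0.00216. The balance moved by 0.0041 for Cox4i2 minus Cox4i1, -0.27 for Cox6a2 minus Cox6a1, -0.031 for Atp5g1 minus Atp5g3, 0.049 for Atp5g2 minus Atp5g3, -0.080 for Atp5g1 minus Atp5g2 and 0.11 for Atpif1 minus Atp5b. Exact p-values ran from 0.277 (Atp5g2 minus Atp5g3) to 0.929, and all were 0.929 after adjustment over the 6 pairs.

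Members varied together within the groups to a modest degree. After removing the group means, the median correlation over all pairs of the 39 members was 0.20, and it was 0.26 for the 34 members with a mean of at least 12, against 0.083 for all genes that bright. By complex it was 0.36 for complex II, 0.17 for complex IV, 0.23 for the ATP synthase and -0.019 for complex III. For complex I subunits it was 0.34, and for the assembly genes 0.25. These values describe 12 arrays that share a normalization, and they are given without a test.

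Assembly factors, proteins that build the complexes without staying in them, held several called genes. Of 36 measured assembly factors (39 listed), 5 rose and 1 fell. That is 16.7%, against 8.03% of all genes and 14.7% of the 5269 genes with a mean between 9 and 12. Of those 5269 genes, 241 were called higher and 536 lower. The difference from the subunits was not tested. Atpaf2, which brings the alpha subunit into the ATP synthase head, ran from 11.39 (median 11.43) to 11.51 in controls and from 11.70 (median 11.74) to 11.79 after anti-FGFR1. The groups were far apart, and Atpaf2 rose by 0.31 ± 0.04 (1.24-fold, limma adjusted p = 0.00029), a call kept in all 23 alternatives (adjusted p up to 0.0055). Its partner Atpaf1, which serves the beta subunit, differed by -0.0038 ± 0.064, and Fmc1 by 0.039 ± 0.043.

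Assembly factors of complex IV accounted for 3 of the other rises. Coa3, which stabilizes newly made Cox1, ran from 11.54 (median 11.64) to 11.68 in controls and from 11.68 (median 11.87) to 11.97, and rose by 0.22 ± 0.05 (adjusted p = 0.0152). Cox20, a chaperone of Cox2, ran from 11.65 (median 11.71) to 11.78 and from 11.84 (median 11.88) to 11.95, without overlap, and rose by 0.17 ± 0.04 (adjusted p = 0.0188). Surf1, which acts in heme insertion, was 10.13 ± 0.08 and 10.32 ± 0.08, a rise of 0.20 ± 0.05 (adjusted p = 0.0293). Cox18, which inserts Cox2 into the membrane, ran from 10.09 (median 10.18) to 10.30 and from 10.01 (median 10.03) to 10.07, without overlap, and fell by 0.16 ± 0.04 (adjusted p = 0.0351). Of 22 measured complex IV factors, 18 were not called. The calls of Coa3 and Cox20 held without any single array. That of Cox20 was lost in 4 other alternatives, among them the mean of its probe sets (0.089, adjusted p = 0.177). Coa3 lost its call in 3 others (adjusted p up to 0.0585). That of Surf1 was lost without any of 6 arrays (control IgG replicates 3, 5 and 6 and anti-FGFR1 replicates 3, 4 and 5, adjusted p 0.0556 to 0.0637) and that of Cox18 without any of 9 (control IgG replicates 2, 3 and 5 and every anti-FGFR1 replicate, adjusted p 0.0531 to 0.0796). After another quantile normalization Cox18 differed by -0.12 (adjusted p = 0.0941).

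For complex III, Uqcc1, needed for making cytochrome b, rose from 11.01 ± 0.07 to 11.19 ± 0.06 (0.18 ± 0.04, adjusted p = 0.0225), with all 6 treated mice above all controls. That call was lost without anti-FGFR1 replicate 1 (adjusted p = 0.0561) or replicate 3 (0.0517). In all it was lost in 6 of the 23 alternatives, among them the mean of its probe sets, with limma adjusted p up to 0.145. Bcs1l, the translocase that inserts Uqcrfs1, differed by 0.19 ± 0.06 (adjusted p = 0.0566) and Ttc19, which clears fragments of Uqcrfs1, by -0.21 ± 0.06 (adjusted p = 0.0637). For complex II no factor of 4 was called, with Sdhaf2, Sdhaf3 and Sdhaf4 at 0.076 ± 0.044, 0.083 ± 0.051 and 0.045 ± 0.040. Hccs, which attaches heme to cytochrome c, differed by 0.051 ± 0.049. With the 3' to 5' covariate, Atpaf2 was the single assembly gene called higher, and Coa3 stood at 0.25 ± 0.07 (adjusted p = 0.0533).

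**Figure D5:**
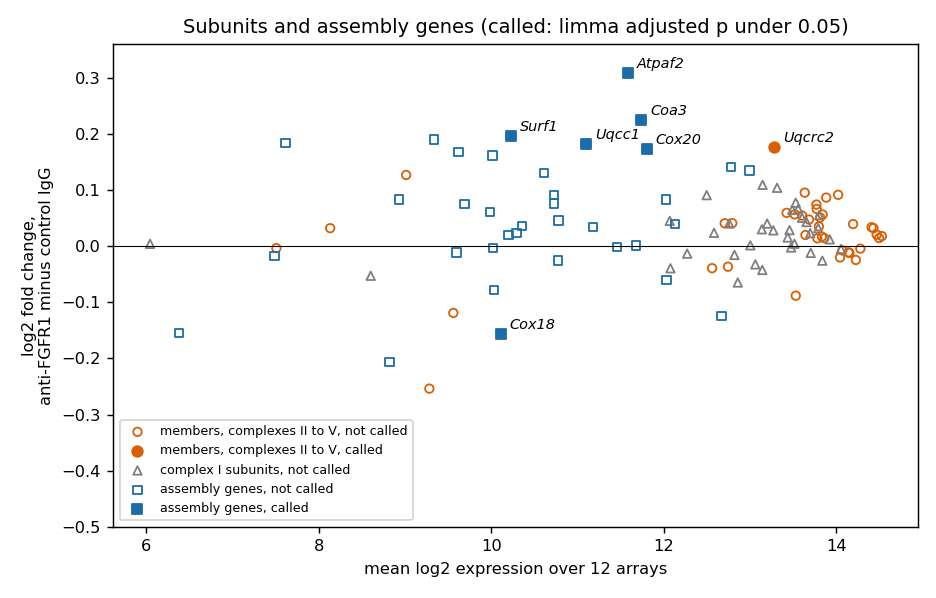
Log2 fold change (anti-FGFR1 minus control IgG, y axis) against mean log2 expression over the 12 arrays (x axis) for the 39 members, the 36 measured assembly factors and 34 complex I subunits, with called genes filled. Atpaf2 (0.31) stands highest, and the subunits with a mean of at least 12 lie between -0.088 and 0.18.

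Among 13 further nuclear subunits of complexes III to V, 1 was called (7.69%, against 8.03% of all genes). Cox7a1, the subunit VIIa isoform of heart, muscle and brown fat, ran from 13.13 (median 13.20) to 13.32 in controls and from 13.33 (median 13.36) to 13.45 after anti-FGFR1. The groups did not overlap, and Cox7a1 rose by 0.16 ± 0.05 (adjusted p = 0.0423). The call was lost without any of 10 single arrays (all but control IgG replicates 2 and 5, adjusted p 0.0557 to 0.0973) and with the 3' to 5' covariate (0.15 ± 0.06, adjusted p = 0.207). Cox8b, the muscle-type isoform of subunit VIII also found in brown fat, differed by 0.11 ± 0.05 (adjusted p = 0.152), and Mp68, a small ATP synthase protein, by 0.097 ± 0.044 (adjusted p = 0.203). Complex I, the entry point for NADH, had 0 of 34 measured subunits called (limma) and 2 at an unadjusted p under 0.05, with 23 above 0 and a median of 0.023. With the 3' to 5' covariate, 18 of the 34 complex I subunits lay above 0 (median 0.0030). The smallest p-values there belonged to Ndufa13 (0.11 ± 0.04, adjusted p = 0.0975), Ndufb5 (0.10 ± 0.04) and Ndufs3 (0.077 ± 0.039). The subunits encoded in mitochondrial DNA were not analysed here.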

How the data were processed

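The authors deposited log2 expression values for 45101 probe sets on 12 Affymetrix arrays, made with RMA and limma per the submitters' processing notes, which give no versions. RMA subtracts background, brings the arrays to 1 distribution and condenses each probe set to a single value, which can shrink differences of dim genes. Which arrays were normalized together, and the genome build, are not given in the sources used here. The 3' to 5' ratio came from the control probe sets of Actb and Gapdh.

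The platform's probe table listed 35890 probe sets, 34958 with a single gene and 932 with several, and 9211 had no entry. Entrez identifiers linked 34754 of them to current symbols in the RefSeq table of GRCm38.p6. A gene was represented by its brightest probe set on average over both groups (18193 genes), and 64 control probe sets were left out. Promoters came from RefSeq, with the start as annotated.

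The group comparison used lmFit and eBayes of limma 3.58.1 under R 4.3.3, two-sided and without covariates, adjusted by Benjamini-Hochberg over all genes. Called means an adjusted p under 0.05, and this count of calls was repeated under the alternatives given in the closing section. Values per array were compared with exact permutation tests. The labels describe 6 mice per group, so each replicate is an animal. Arrays give no counts, and their number sets the precision. No pair of arrays shared more than 0.0665% of its values. All members are named, with the other pathway genes called and, per list, the 3 lowest in p. The members and lists were chosen with earlier results of these data known. The fit for anti-FGFR1 against control IgG was run on simulated data with 18193 genes. It recovered 40% of changes of 0.25, 86.2% of 0.5 and 100% of 1 on the log2 scale. Of the calls made there, 9.03% were false. The changed genes were drawn at random from all genes, with their own SDs (median 0.11 over all genes). They were far fewer than the 1461 genes called in the data, and recovery with that many was not simulated. Recovery at the smaller SDs of the bright members (median 0.041) was not simulated separately.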

Additional observations from a re-analysis of the deposited data

Results flagged for a closer look

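In 6 of the 78 groups of 6 values looked at (39 members, both treatments), a single array stood apart from the other 5, where chance gives about 1 in 20 groups. Uqcrb was 14.38 on anti-FGFR1 replicate 6, against 14.46 to 14.47 on the others of its group. Uqcrh was 13.93 on anti-FGFR1 replicate 1, against 13.81 to 13.84. Cox5b was low on replicate 6 of both groups, at 14.41 in controls (others 14.46 to 14.48) and 14.44 after anti-FGFR1 (others 14.48 to 14.5). Cox7c was 8.559 on anti-FGFR1 replicate 1, against 8.014 to 8.169. Atp5f1 was 13.63 on the same array, against 13.52 to 13.54. Of these 6 values, 3 were on anti-FGFR1 replicate 1 and all 3 were high.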

How the results depend on the processing

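Over the 23 alternatives no called gene named in the text changed sign. The 1461 genes changed became 688 with the 3' to 5' covariate, and 1043 to 1698 when single arrays were left out. Of the members, 0 were called (limma) with each array centred on its median, with any of 3 covariates (3' to 5' ratio, skeletal muscle mean, macrophage mean), with the replicate number as a block, or without the 2 arrays lowest in skeletal muscle markers, an alternative chosen after seeing the data. There were 2 with an intensity trend and 0 to 1 with single arrays left out. With the mean of the probe sets Cox6c was called in place of Uqcrc2. Of the other pathway genes, 7 in the comparison as reported, 1 was called with the 3' to 5' covariate, 3 with the replicate block, 12 with the intensity trend, 13 without dim genes, 1 without those 2 arrays and 4 to 7 with single arrays left out. Assembly genes called higher, 5 as reported, numbered 9 after another quantile normalization, 1 with the 3' to 5' covariate, 3 with the replicate block, 8 with the intensity trend, 8 without dim genes, 1 without those 2 arrays and 4 to 6 with single arrays left out. Another quantile normalization moved the share of lower calls among all genes from 63.4% to 50.9%. No isoform pair passed under any alternative run. Deviations of same-numbered arrays correlated at 0.285, 0.329 and 0.218 for numbers 1 to 3, each array being most like its own number, and at -0.00377, -0.295 and -0.124 for 4 to 6. The numbers thus do not pair all samples, and the replicate block rests on a shared number. It ended the calls of Uqcrc2, Uqcc1, Cox18, Cox20 and Cox7a1. With 6 arrays per group, changes of 0.25 on the log2 scale were often missed in simulated data. That simulation used the SDs of genes drawn from the whole array, which are wider than those of most members. It also changed far fewer genes than were called in the data. Cox4i2 and Cox7c, with means of 7.51 and 8.13, lay near the array medians (7.19 to 7.23).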
